A study of Mus musculus with 4 samples.

Results

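The 10 genes described here encode the germ cell forms of enzymes that take glucose to lactate or into the mitochondrion: Hk1, Aldoart1, Aldoart2, Gapdhs, Pgk2, Pgam2, Eno4, Ldhc, Ldhal6b and Pdha2. They were chosen by gene symbol, and each symbol gave 1 gene model of the 50600 in each table. The samples were testes of 8-week-old C57BL/6 mice, with no genetic change or treatment named. RNA immunoprecipitation (RIP), which pulls a protein out of a lysate with the RNAs bound to it, was done with an antibody to LARP7 (2 libraries) and with non-specific IgG (2 libraries), which measures RNAs that stick to the beads without it. The La-related protein LARP7 is best known for holding the 3′ end of 7SK RNA. The labels do not tie the replicates to separate animals. The p-values therefore rest on how far these libraries lay apart, and that spread may be technical only. Libraries were size-selected for RNAs of 15 to 300 nt, so a count for an mRNA is a fragment of it. The 4 libraries held between 4411271 and 6994514 expected counts each.

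Sperm swim largely on glycolysis, which runs in the principal piece of the tail, and male germ cells express their own versions of several of its enzymes. Pgk2 and Pdha2 are autosomal copies of X-linked genes (Pgk1 and Pdha1), which are silenced when the X chromosome is shut down in meiosis. Such copies arose by reverse transcription of an mRNA, so they lack introns, while Ldhc and Gapdhs are ordinary spliced genes. The name germ cell isoform fits some members loosely. Pdha2 encodes a subunit of pyruvate dehydrogenase, which acts after glycolysis. Hk1 is expressed in many tissues, and its model pools 20 transcripts, so its germ cell transcript was not resolved. Pgam2 is also the muscle form of its enzyme. The 9 listed skeletal muscle markers summed to 58 and 32 counts with LARP7 and 124 and 53 with IgG, with Myl1 and Tnni2 at 0 in all 4. Most of the IgG counts were of the enolase Eno3 (21 and 15 against 107 and 50), and the other 8 markers had 37 and 17 against 17 and 3. The part of muscle RNA in Pgam2 was not tested.

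A member was taken as single-exon where its span in the RefSeq gene table of GRCm38.p6 was at most 1.2 times the length of its model. By this rule 5 were single-exon: Pgk2 (chromosome 17, 40207018 to 40208609), Pdha2 (chromosome 3, 141210004 to 141212355), Aldoart1 (chromosome 4, 72850583 to 72852634), Aldoart2 (chromosome 12, 55565205 to 55566896) and Ldhal6b (chromosome 17, 5417323 to 5418767). The other 5 were spliced: Ldhc (chromosome 7, 46861263 to 46878147), Gapdhs (chromosome 7, 30729779 to 30744791), Eno4 (chromosome 19, 58934058 to 58971421), Pgam2 (chromosome 11, 5801637 to 5803796) and Hk1 (chromosome 10, 62268855 to 62379920). Their spans were 2.57 (Pgam2) to 36.2 (Hk1) times the model length. Counts of 8 members had a posterior SD of 0, so none of their reads was divided with another gene model. For Aldoart1 and Aldoart2 it reached 0.0798 and 0.0358 of the count. Ldhal6b lies within the gene Tmem242, and Gapdhs, Eno4 and Hk1 overlap Sbsn, Hspa12a and Hk1os. Whether counting used strand is not given in the sources used here, so reads in an overlap cannot be told apart. A posterior SD of 0 does not exclude such reads. The partners' own models had at most 54 counts in a library, which sets no limit on the reads in an overlap.

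The 120 bases before the annotated start of Ldhc, Pgk2 and Pdha2 are shown because these members stand for the 3 outcomes described below: most abundant but not called, lower, and not lower. Sequences are from RefSeq (GRCm38.p6), where 9 members matched and Aldoart1 did not. Each is written 5′ to 3′ on the gene's own strand. Capitals mark the core of the cAMP response element (TGACG), a GC box (GGGCGG) or a TATA box (TATAAA), searched on both strands. In this window TGACG is found in 11.7% of the 32851 promoters of the table, GGGCGG in 26.5% and TATAAA in 6.34%.
Ldhc, chr7:46861143-46861262, plus strand: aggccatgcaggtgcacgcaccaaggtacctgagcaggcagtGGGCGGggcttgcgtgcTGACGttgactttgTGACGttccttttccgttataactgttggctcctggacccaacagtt
Pgk2, chr17:40208610-40208729, minus strand: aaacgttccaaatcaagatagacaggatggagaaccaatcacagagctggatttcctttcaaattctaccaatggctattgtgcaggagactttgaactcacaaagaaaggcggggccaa
Pdha2, chr3:141212356-141212475, minus strand: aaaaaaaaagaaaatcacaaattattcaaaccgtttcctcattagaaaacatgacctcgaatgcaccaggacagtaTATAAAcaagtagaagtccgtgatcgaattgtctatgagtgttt
Ldhc held 2 copies of TGACG and 1 GC box, Pdha2 held 1 TATA box, and Pgk2 held none of the 3 motifs in this window. Of members not shown, Ldhal6b, which was called lower, held 2 matches to TATAAA. Eno4, which like Pdha2 was not lower, held none of the 3 motifs. A link between motif and outcome was not tested. RefSeq lists a further start for Ldhc downstream, whose window is not shown.

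The first question was whether the mRNAs of these enzymes came down with LARP7 beyond the IgG background. Of the 10, 0 were called higher in the LARP7 libraries and 7 were called lower, at an adjusted p under 0.05 over 12234 genes (quasi-likelihood test of edgeR after TMM, a scaling that centres most genes on no change). The 7 were Aldoart1, Gapdhs, Hk1, Pgk2, Aldoart2, Ldhal6b and Pgam2, with log2 fold changes (LARP7 minus IgG) between -2.03 and -1.41. Ldhc, Pdha2 and Eno4 were not called. At an unadjusted p under 0.05 edgeR also gave 0 members higher, and 7 lower, and DESeq2 called 0 higher. Of all tested genes 14.5% were called higher and 9.69% lower. The members' median log2 fold change was -1.51, against -0.05 for all tested genes. All 10 passed the filter on low counts, each with more raw counts in IgG than in LARP7. The value furthest from 0, that of Aldoart1, rests on only 10 and 5 counts with LARP7.

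Both LARP7 libraries lay below both IgG libraries for 8 of the 10 members in TMM-scaled CPM (counts relative to the scaled library size), while 35.6% of all tested genes showed this. Scaling by library totals instead of TMM lowered the median of all genes by 1.42, from -0.05 to -1.47. With library totals 8 members were called lower, the same 7 and Ldhc, beside 47.1% of all genes (5759 lower and 483 higher, where TMM gave 1185 and 1772), and the members' median was -2.99. DESeq2 called 4 members lower (Gapdhs, Hk1, Pgk2 and Pgam2), beside 5.96% of all genes. With limma on log2(TPM + 1) 0 members were called, 8 were lower at an unadjusted p under 0.05, and 0.155% of all genes were called lower.

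The number of calls rested on single libraries. Without LARP7 replicate 2, edgeR called 0 members (5 lower at an unadjusted p under 0.05), beside 1.38% of all genes lower. Without IgG replicate 1 it called 1 (Gapdhs), beside 6.28%. Without LARP7 replicate 1 it called 6 members lower, beside 6.29%, and without IgG replicate 2 it called 5, beside 6.32%. The log2 fold changes of the 7 members stayed negative in these 4 fits, between -2.72 and -1.01. Each such fit has a lone library on one side, which is assumed to vary like the other group.

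**Figure D1:**
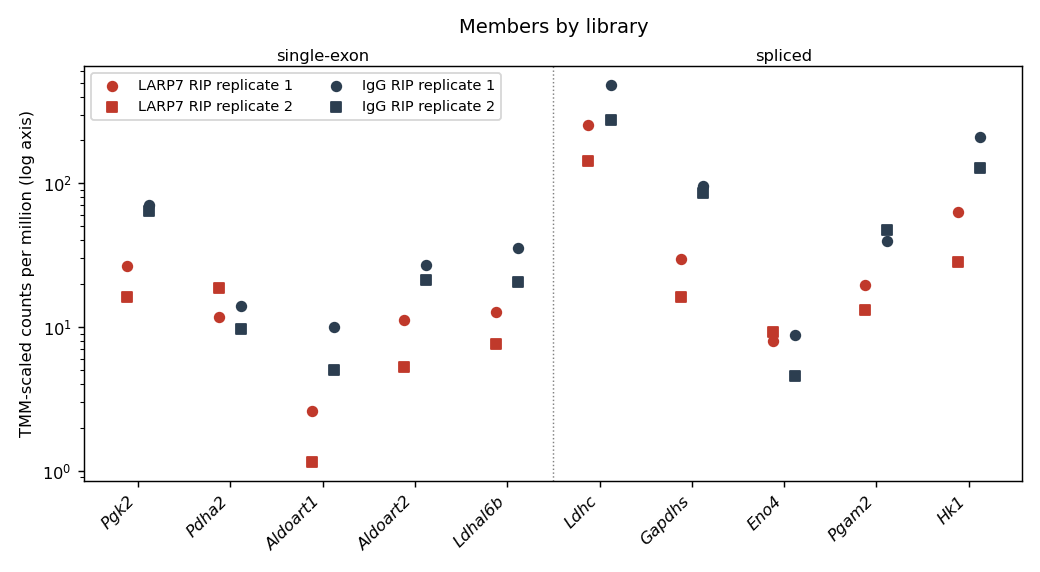
TMM-scaled CPM (log axis) of the 10 members in the 2 LARP7 libraries (red) and the 2 IgG libraries (dark), single-exon members on the left and spliced on the right; circles are replicate 1 and squares replicate 2. The red points lie below the dark ones for 8 members and mix with them for Pdha2 and Eno4.

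Along the pathway, Hk1 encodes hexokinase 1, which phosphorylates glucose in the first step. It had 242 and 124 expected counts in the LARP7 libraries and 2704 and 812 in the IgG libraries. That was 45.7 ± 24.3 CPM against 170 ± 58.5 (SD, n = 2 each), a mean 3.72-fold lower (log2 ratio -1.90 with an SE of 0.59 and an edgeR adjusted p = 0.0399). Both groups spread widely, and the higher LARP7 library (62.9 CPM) was still below the lower IgG library (128 CPM). The call did not hold without IgG replicate 1 (-1.48, adjusted p = 0.12), nor in the fit that dropped LARP7 replicate 2 (-1.43, adjusted p = 0.253).

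Aldolase, which splits fructose bisphosphate, has the retrogene copies Aldoart1 and Aldoart2. Aldoart1 had 10 and 5 counts with LARP7 and 128 and 32 with IgG, the fewest LARP7 counts of any member. It had 1.87 ± 1.03 CPM against 7.53 ± 3.49 (SD, n = 2 each; log2 ratio -2.03 with an SE of 0.64 and an edgeR adjusted p = 0.0412). Aldoart2 had 43 and 23 counts against 345 and 134. Its mean was 8.23 ± 4.17 CPM against 24.1 ± 4.07 (log2 ratio -1.56 with an SE of 0.46 and an edgeR adjusted p = 0.0329). For both copies every LARP7 value was under every IgG value. DESeq2 did not call either (adjusted p = 0.079 and 0.0526). Among the fits leaving out a library, the call of Aldoart1 held only without IgG replicate 2 (-2.37). The other such fits gave Aldoart1 log2 ratios from -2.72 to -1.43.

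Gapdhs encodes the sperm form of glyceraldehyde phosphate dehydrogenase, anchored in the fibrous sheath of the tail. It had 115 and 71 counts with LARP7 and 1232 and 536 with IgG. Scaled, these were 29.9 and 16.3 CPM against 96.2 and 84.8, a mean 3.92-fold lower (log2 ratio -1.97 with an SE of 0.50 and an edgeR adjusted p = 0.0211). Its adjusted p was the lowest of the members, and its call was lost only without LARP7 replicate 2 among the 4 fits that leave out a library (-1.60, adjusted p = 0.102).

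Pgk2 encodes phosphoglycerate kinase 2, which makes ATP in the next step. The LARP7 libraries held 102 and 71 counts of it and the IgG libraries 897 and 405. The IgG values were close together after scaling, at 70.1 and 64.1 CPM, and the LARP7 values were 26.5 and 16.3 CPM. The mean was 3.13-fold lower with LARP7 (log2 ratio -1.65 with an SE of 0.46 and an edgeR adjusted p = 0.0284). Of the fits leaving out a library, Pgk2 was called only in that without LARP7 replicate 1 (-2.06, adjusted p = 0.0298).

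Pgam2, the phosphoglycerate mutase of muscle and testis, had 76 and 57 counts with LARP7 and 509 and 301 with IgG. Its CPM was 16.4 ± 4.71 against 43.7 ± 5.56 (SD, n = 2 each; log2 ratio -1.41 with an SE of 0.42 and an edgeR adjusted p = 0.0350). This was the smallest change among the 7 called, and again the groups did not overlap. Among the fits leaving out a library, the call of Pgam2 held only without LARP7 replicate 1 (-1.75). The other such fits gave log2 ratios from -1.53 to -1.14.

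Eno4, an enolase of the sperm tail, did not follow the other members. It had 31 and 40 counts with LARP7 against 112 and 29 with IgG. Its CPM was 8.05 and 9.18 against 8.75 and 4.59, so the groups overlapped. Its log2 fold change was 0.35 with TMM (SE 0.48, edgeR adjusted p = 0.613) and -1.10 with library totals (adjusted p = 0.103). Its direction thus depended on the scaling.

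Lactate dehydrogenase turns pyruvate into lactate, and Ldhc encodes its classic sperm form. Ldhc had the most counts of any member in each library, with 981 and 618 counts with LARP7 and 6211 and 1732 with IgG. Its CPM was 255 and 142 against 485 and 274. The groups did not overlap, yet the replicates of each lay apart, and the change was not called (log2 ratio -0.94 with an SE of 0.63 and an edgeR adjusted p = 0.288). Without IgG replicate 1 its value was -0.46, and without LARP7 replicate 1 it was -1.43. Only scaling by library totals, or limma on log2(TPM + 0.1), called Ldhc (-2.44 and -3.52).

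Ldhal6b, an intronless gene of the same family, had 49 and 33 counts with LARP7 and 451 and 130 with IgG. Its CPM was 10.2 ± 3.65 against 27.9 ± 10.4 (SD, n = 2 each; log2 ratio -1.47 with an SE of 0.45 and an edgeR adjusted p = 0.0378). DESeq2 did not call it (adjusted p = 0.0648).

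Pdha2 encodes the testis form of the E1 alpha subunit of pyruvate dehydrogenase, which feeds pyruvate into the mitochondrion. It had 45 and 81 counts with LARP7 and 178 and 61 with IgG. LARP7 replicate 2 held more counts of Pdha2 than IgG replicate 2, which no other member but Eno4 showed. In CPM it had 11.7 and 18.6 against 13.9 and 9.65, overlapping values. The log2 fold change was 0.36 with TMM (SE 0.43, edgeR adjusted p = 0.563) and -1.06 with library totals (adjusted p = 0.0747), so its direction depended on the scaling too.

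**Figure D2:**
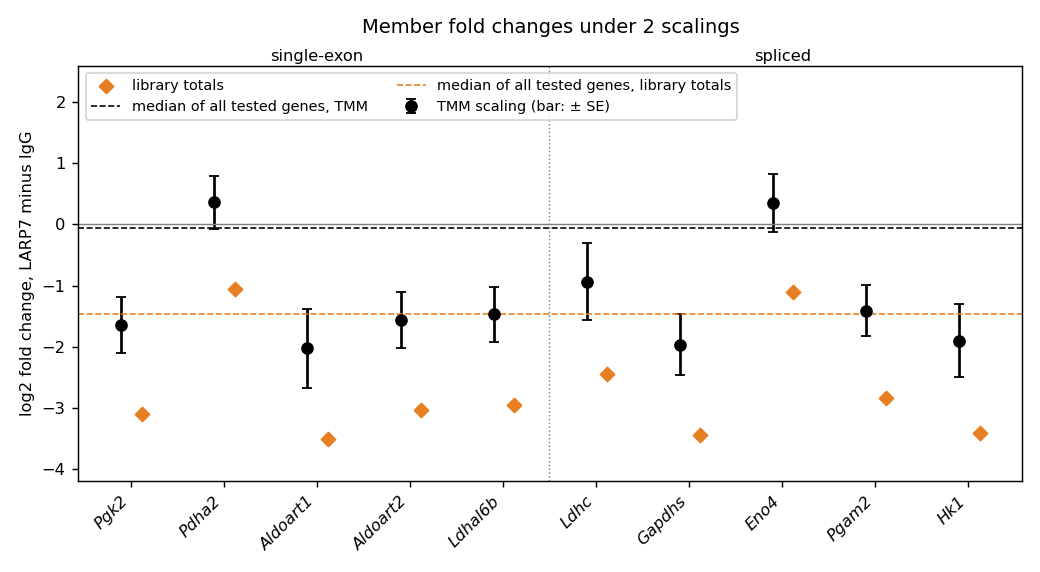
The log2 fold change (LARP7 minus IgG) of each member with TMM scaling (black, bars ± SE) and with library totals (orange diamonds); dashed lines are the medians of all tested genes, -0.05 and -1.47. Pdha2 and Eno4 lie above the matching median under both scalings, and the other 8 members lie below it.

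Counts cannot be compared between genes of different length, so levels were ordered by the TPM of the authors, which is per length. In the IgG libraries Ldhc stood first, with 82.5 and 23.1 TPM. Gapdhs (14.8 and 6.37), Hk1 (13.1 and 3.58), Pgam2 (8.66 and 5.31) and Pgk2 (7.76 and 3.64) followed. The ranges of these 4 over the 2 IgG libraries overlapped from each rank to the next. Within each IgG library Gapdhs was above Pgam2, and Pgam2 above Pgk2. Only the place of Hk1 among them changed, above Pgam2 in replicate 1 and below Pgk2 in replicate 2. Ldhal6b (4.32 and 1.29) and Aldoart2 (2.86 and 1.15) came next. The lowest were Pdha2 (1.03 and 0.37), Aldoart1 (0.85 and 0.22) and Eno4 (0.67 and 0.19). They kept this order in each IgG library, though their ranges over the libraries again overlapped. Ldhc above Gapdhs, and Aldoart2 above Pdha2, were the only neighbouring ranks whose ranges over the IgG libraries did not overlap. In the LARP7 libraries Ldhc had 3.52 and 3.92 TPM and was also first, while Pdha2 had 0.07 and 0.23. TPM is scaled by all RNAs of a library, short ones included, so these levels were ranked by their IgG mean and not compared between the groups.

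A ratio of 2 members within a library does not depend on how libraries are scaled. Each member was therefore divided by Pgk2. Pdha2 had 0.441 and 1.14 counts per Pgk2 count with LARP7, against 0.198 and 0.151 with IgG, a log2 difference of 2.04. Eno4 had 0.304 and 0.563 against 0.125 and 0.0716, a log2 difference of 2.13. Both were thus higher relative to Pgk2 in each LARP7 library than in each IgG library. Pgk2 was itself called lower (-1.65), and Pdha2 and Eno4 were not (0.36 and 0.35). These differences therefore largely repeat the fold changes given above. Ldhc had 9.62 and 8.70 per Pgk2 count against 6.92 and 4.28 (log2 difference 0.75), Pgam2 0.745 and 0.803 against 0.567 and 0.743 (0.25), and Gapdhs 1.13 and 1.00 against 1.37 and 1.32 (-0.34). These groups did not overlap, though the nearest Pgam2 values were 0.745 and 0.743. The ratios of Aldoart1, Aldoart2, Ldhal6b and Hk1 overlapped, with log2 differences from -0.32 to 0.23. With 2 libraries against 2, the smallest two-sided p of an exact permutation test is 0.333, so none of these 9 ratios could pass a threshold of 0.05.

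**Figure D3:**
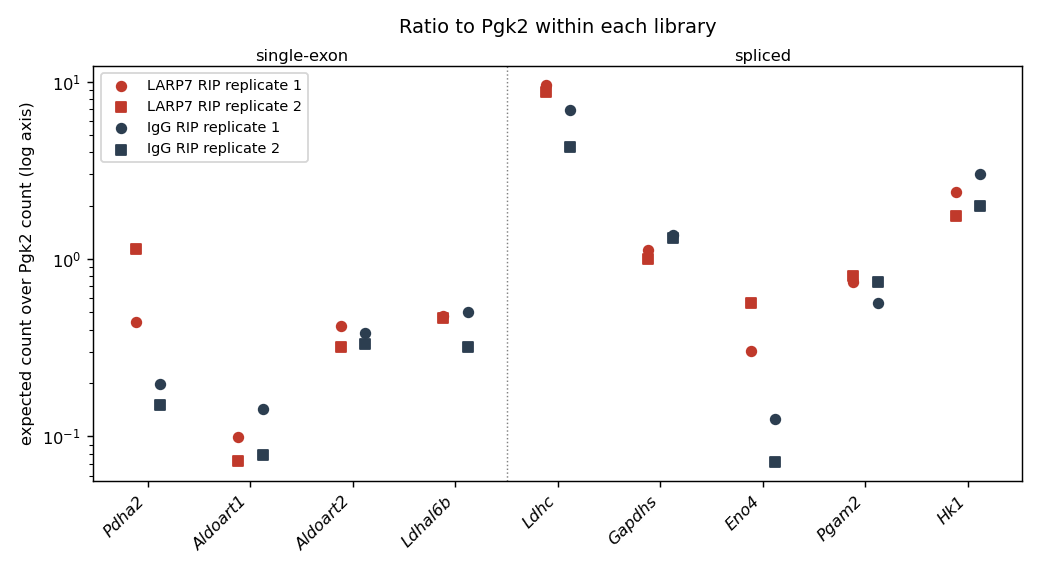
Expected count of each other member divided by that of Pgk2 in the same library (log axis), LARP7 libraries in red and IgG libraries dark, circles replicate 1 and squares replicate 2. Pdha2 and Eno4 show the widest gap between the groups, with log2 differences of 2.04 and 2.13.

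Single-exon and spliced members were compared next, as many of these genes lack introns. Of the single-exon members 4 of 5 were called lower and of the spliced members 3 of 5, with median log2 fold changes of -1.56 and -1.41. Each class held 1 member with a positive value under TMM and a negative value with library totals (Pdha2 and Eno4). The single-exon members supplied 249 of 1694 member counts in LARP7 replicate 1, or 14.7% (95% Wilson interval 13.1% to 16.5%, which covers counting error only). The shares were 19.0% (16.8% to 21.4%) in LARP7 replicate 2, 15.7% (15.0% to 16.3%) in IgG replicate 1 and 18.3% (17.1% to 19.5%) in IgG replicate 2. Replicates of a group lay further apart than the group means of 16.8% ± 3.02 and 17.0% ± 1.84 (SD, n = 2 each). The difference of -0.136 percentage points had p = 1 in an exact two-sided permutation test.

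That share was weighted by Ldhc, which held 41.5% to 57.9% of the member counts. Without Ldhc the single-exon share was 34.9% and 42.2% with LARP7 against 30.5% and 31.2% with IgG, a difference of 7.68 points. Pdha2 carried most of that gap. Without both genes, an alternative chosen after seeing the data, the shares were 30.5% and 31.1% against 28.6% and 29.5%, a difference of 1.81 points. Without Pdha2 alone, also chosen after seeing the data, the difference was -3.25 points. In each of these 3 cases the exact permutation p was 0.333, the smallest possible here. Over all protein-coding genes, 74 of 417 single-exon genes tested (17.7%) were called lower and 67 (16.1%) higher, with a median of 0.15. For 9515 spliced genes tested the shares were 10.2% lower and 10.8% higher, with a median of -0.26. With library totals these medians were -1.24 and -1.69. These are descriptions without a test, and only 417 of 2284 single-exon models passed the filter on low counts. The classes rest on the span rule and not on annotated exons, so a gene with a short intron can fall among the single-exon genes.

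Other intronless genes known from male germ cells were set beside the members. All 14 listed were tested, with 1 higher (Tktl2, 2.27), 5 lower and a median of -1.18. The span rule classed Tktl2, Utp14b (1.12, not called) and Hspa2 (-1.17, not called) as spliced and the other 11 as single-exon. Of these 11, 0 were called higher and 5 lower in edgeR, with a median of -1.30; at an unadjusted p under 0.05 there were 0 and 6, and in DESeq2 0 and 4. The 5 were Ubl4b (-2.62), a ubiquitin-like gene, Gykl1 (-1.74), a glycerol kinase, the actin-like Actl7b (-1.55) and Actl7a (-1.30), and the kinesin Kif2b (-1.50). Their edgeR adjusted p lay between 0.0132 and 0.0452. None of these 5 was called without LARP7 replicate 2.

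The somatic counterparts of the members gave few counts. Of 9 genes, 8 were tested, 0 were called higher and 2 lower, and the median log2 fold change was -0.53. In DESeq2 and at an unadjusted p under 0.05 the counts were also 0 and 2. Pdha1, the X-linked parent of Pdha2, had 0 and 3 counts with LARP7 and 24 and 0 with IgG, too few to be tested. Pgk1, the parent of Pgk2, had 3 and 10 against 26 and 7 (log2 fold change -0.04 with TMM, SE 0.85, and -1.45 with library totals). The 2 genes lower were Ldha, the common lactate dehydrogenase, with 90 and 85 against 902 and 332 counts (-1.52, SE 0.44, edgeR adjusted p = 0.0324), and the enolase Eno1, with 30 and 27 against 274 and 163 (-1.75, SE 0.41, edgeR adjusted p = 0.0164). Neither was called without LARP7 replicate 2, and for each this was not the only fit leaving out a library that lost the call. Over such fits the log2 ratios were -1.67 to -1.29 for Ldha and -1.94 to -1.56 for Eno1.

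Aldoa (-0.69), Gapdh (-0.38) and Hk2 (-0.97) were not called. Pgam1 and Ldhb were not called either, with values of 0.25 and 0.35 under TMM that turned to -1.22 and -1.05 with library totals. The posterior SD reached 0.45 of the count for Pgk1 and 0.273 for Gapdh in a library, so the split of their reads with other models is uncertain. Set against its counterpart in each library, Eno4 had 1.04 and 1.47 counts per Eno1 count with LARP7 and 0.409 and 0.178 with IgG. Aldoart1 had 0.153 and 0.0933 per Aldoa count against 0.317 and 0.312, and Aldoart2 0.645 and 0.413 against 0.853 and 1.31. Ldhc had 10.9 and 7.27 per Ldha count against 6.89 and 5.22, while Ldhal6b per Ldha overlapped (0.544 and 0.388 against 0.500 and 0.392). Per Ldhb count, Ldhc went the other way, with 49.0 and 12.1 against 62.1 and 50.9. Gapdhs per Gapdh (13.5 and 3.53 against 20.9 and 20.7), Pgam2 per Pgam1 (2.32 and 3.64 against 7.27 and 9.88) and Hk1 per Hk2 (8.64 and 11.3 against 23.1 and 12.9) were lower in each LARP7 library than in each IgG library. Hk1 is itself expressed in many tissues, so its ratio to Hk2 does not set a germ cell form against a somatic form. Pgk2 per Pgk1 overlapped (36.7 and 7.14 against 34.5 and 62.1). No ratio could go below an exact permutation p of 0.333, and several counterparts had few counts.

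In the rest of the pathway, a list of 32 genes for other isoenzymes, pyruvate dehydrogenase subunits, their kinases and phosphatases, and glucose and lactate transporters, 20 were tested. Of these 8 were called lower and 1 higher, with a median of -1.02 (-2.47 with library totals). The largest falls were in Slc16a7, a lactate and pyruvate transporter of sperm (-2.37, edgeR adjusted p = 0.00619), and the pyruvate dehydrogenase kinase Pdk2 (-2.26, adjusted p = 0.0115) and phosphatase Pdp1 (-2.25, adjusted p = 0.0469). Pdp1 had only 3 and 4 counts with LARP7 against 45 and 30 with IgG (SE 0.74). DESeq2 did not call Pdp1 (adjusted p = 0.106), nor did edgeR with no filter (adjusted p = 0.0601). Pfkm, a phosphofructokinase (-1.48), and Gpi1, glucose phosphate isomerase (-1.20), were lower too. The other 3 called lower are named after their values were seen: Tpi1 (-1.80), triose phosphate isomerase, Bpgm (-1.81), bisphosphoglycerate mutase, and the glucose transporter Slc2a3. Slc2a3 had 286 and 171 counts with LARP7 and 3081 and 1112 with IgG (-1.88, edgeR adjusted p = 0.0379).

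The gene that rose was Pdp2, another phosphatase of pyruvate dehydrogenase. It had 32 and 60 counts with LARP7 against 15 and 8 with IgG (log2 ratio 3.17 with an SE of 0.56 and an edgeR adjusted p = 0.00656), and 1.78 with library totals (adjusted p = 0.0324). Without LARP7 replicate 2, 1 gene of this list was lower and 0 were higher, and without IgG replicate 1 the counts were 3 and 1; DESeq2 gave 4 lower and 1 higher. Among 8 further germ cell genes of energy metabolism 2 were lower and 1 higher, with a median of -0.68. The sodium pump subunit Atp1a4 (-2.15) and Gykl1 (-1.74) were lower. Tktl2, a transketolase-like gene that the list of intronless genes also holds, was higher, with 478 and 696 counts against 343 and 202 (log2 fold change 2.27, edgeR adjusted p = 0.0141), but not with library totals (0.89, adjusted p = 0.154). Without LARP7 replicate 2, 0 genes of this list were lower (adjusted p = 0.0575 for Atp1a4 and 0.118 for Gykl1) and 1 was higher. Without IgG replicate 1 the counts were 1 and 0.

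Marker genes of testis cells moved beside the members as follows. Of 9 elongating spermatid markers other than Gapdhs, 7 were lower and 0 higher in edgeR, with a median of -1.97; in DESeq2 9 were lower and 0 higher. Among them were Prm1 (-2.41), a protamine, Smcp (-2.32), Tnp2 (-2.21), a transition protein, Oaz3 (-1.97), the fibrous sheath anchor Akap4 (-1.81) and the outer dense fibre gene Odf1 (-1.76). Together the 9 markers took 0.0222% to 0.0281% of the counts in the LARP7 libraries and 0.213% to 0.249% in the IgG libraries. The 10 members took 0.0173% to 0.0245% and 0.0946% to 0.183%. These are shares of raw totals, in which all spliced protein-coding genes also took less with LARP7 (14.6% and 19.8%) than with IgG (41.4% and 37.4%). Without LARP7 replicate 2, 1 of the 9 markers was lower. Of 8 round spermatid markers 3 were lower (Tssk2, Tssk1 and Spaca1), with a median of -1.38. No round spermatid marker was higher in edgeR, at an unadjusted p under 0.05 or in DESeq2.

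Spermatocyte markers had 0 of 7 called in either direction, 1 higher and 1 lower at an unadjusted p under 0.05, 0 in DESeq2 and a median of -0.31. The 6 Leydig markers had 0 called, 0 at an unadjusted p under 0.05, 0 in DESeq2 and a median of -0.09. Of 6 spermatogonial markers tested, Sall4 and Zbtb16 were higher (3.31 and 2.49), and neither was called with library totals or without LARP7 replicate 2 (adjusted p = 0.406 and 0.179). Sall4 had 11 and 21 counts with LARP7 against 8 and 0 with IgG, so its value rests on few counts and a 0 (SE 1.02). The median of the spermatogonial list was 0.82, and -0.58 with library totals. Of 5 Sertoli markers tested 1 was lower (Wt1, -2.05), all 5 had negative values and the median was -1.22, or -2.59 with library totals, where all 5 were called. Wt1 was not called in DESeq2 (adjusted p = 0.088) or without LARP7 replicate 2 (adjusted p = 0.276). The spermatocyte, Leydig and elongating spermatid lists had medians of -1.81, -1.44 and -3.40 with library totals, where all genes had -1.47. Under that scaling 5 of 7 spermatocyte, 4 of 6 Leydig and 1 of 6 spermatogonial markers were called lower, beside 47.1% of all tested genes. All 8 round spermatid markers and all 9 elongating spermatid markers other than Gapdhs were called lower too. Each value compares RNA recovered with the LARP7 antibody and with IgG, and no library of the lysate before RIP was among the samples. The values are thus not levels of a cell type in the testis. The part of these cell types in the members' values was not tested.

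**Figure D4:**
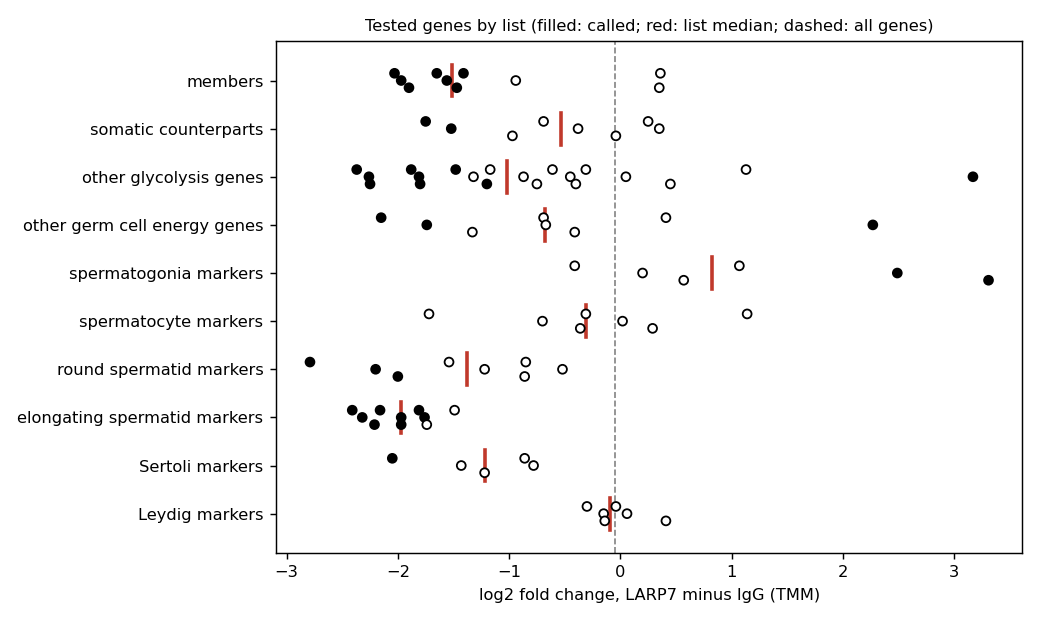
The log2 fold change (LARP7 minus IgG, TMM) of each tested gene by list, filled where called at an adjusted p under 0.05, with the list median in red and the median of all tested genes dashed. The median of the members (-1.51) lies between the round and elongating spermatid markers (-1.38 and -1.97). Sertoli markers, which are somatic, have a median of -1.22, near that of the round spermatid markers. Leydig markers, also somatic, lie near the median of all genes.

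Genes with the profile most like that of the summed members over the 4 libraries were sought among 1904 protein-coding genes with at least 100 counts on average, by the Euclidean distance of centred log2 CPM. The nearest 5 were Eif3b, a translation initiation factor subunit, Tbpl1, a TBP-like factor needed in spermatids, Dctn2, Tcea2 and Chaf1a, at distances of 0.0775 to 0.140. Their log2 fold changes were between -1.34 and -1.27, a likeness that follows from the choice by profile. Eif3b and Dctn2 were not called (edgeR adjusted p = 0.0618 and 0.051). The summed profile was weighted by Ldhc, which held 41.5% to 57.9% of the member counts. The 4 values of a profile make such likeness easy to reach.

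**Figure D5:**
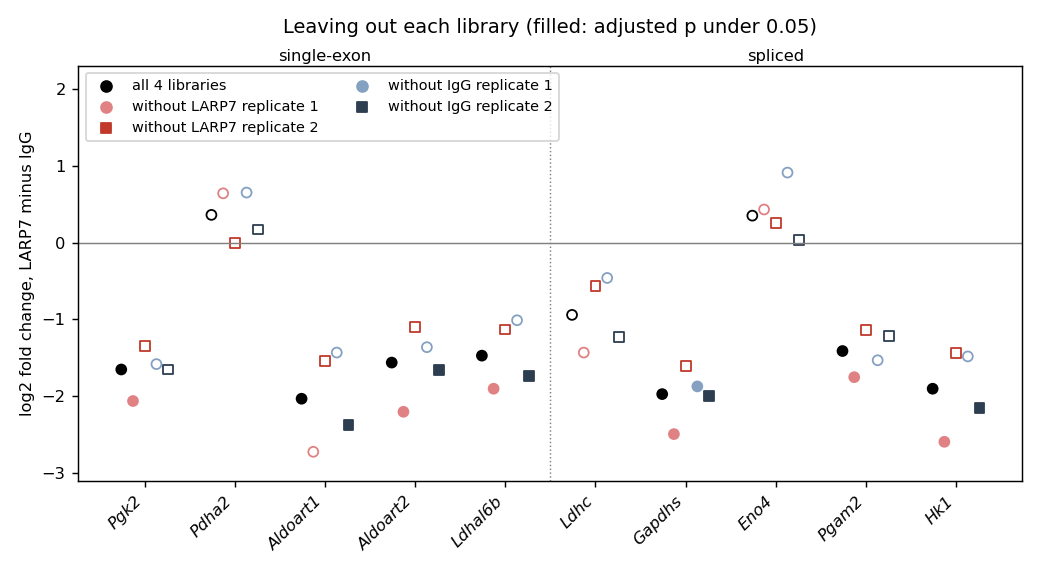
The log2 fold change (LARP7 minus IgG, TMM) of each member with all 4 libraries (black) and without each library in turn, filled where the adjusted p was under 0.05. No symbol is filled for the fit without LARP7 replicate 2, and Gapdhs alone is filled without IgG replicate 1.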

How the data were processed

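Per the submitters' processing notes, the authors used cutadapt, Bowtie2 and RSEM with the mouse build mm10; their versions, settings and use of strand were not given in these sources. Per the file headers, the deposited tables hold per gene model an expected count (RSEM divides reads that map to several places), its TPM, which is scaled by effective length and library, the model's length and RSEM's posterior SD of the count. Expected counts were rounded and tested with edgeR 4.0.16 (R 4.3.3): filterByExpr, TMM, robust quasi-likelihood F test, two-sided, antibody as the only term, all 4 libraries, p-values adjusted by Benjamini-Hochberg (12234 genes) and called under 0.05. SE is the unshrunk log2 fold change over the square root of F. TMM factors were 0.558 and 0.673 (LARP7) and 1.85 and 1.44 (IgG). Mean CPM ± SD use TMM-scaled sizes. Alternatives were library totals, DESeq2 1.42.0, no filter, limma 3.58.1 on log2 TPM with a pseudocount of 1 or 0.1, each library left out, and the replicate number as a block. The scripts were tested on simulated data. Gene symbols are those of the files; 35715 of 50600 models (70.6%) matched the RefSeq table, which gave coordinates and spans. Members and lists were chosen with earlier results of these data known. Named genes are the members, their counterparts, the nearest profiles and, per list, the called genes with the 3 largest and 3 smallest changes.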

Additional observations from a re-analysis of the deposited data

How the results depend on the processing

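Of the 10 members, 7 were lower and 0 higher in the main test. With DESeq2 4 were lower, with limma on log2(TPM + 1) 0, and across the fits that leave out a library 0 to 6. No filter gave 7 lower (5.13% of all genes), library totals 8 and limma on log2(TPM + 0.1) 9 (55.8% of all genes). The number of members higher was 0 under all these settings. Pdha2 changed sign with library totals (-1.06), limma on log2(TPM + 1) (-0.54) and log2(TPM + 0.1) (-1.62), and without LARP7 replicate 2 (-0.01; -0.01 to 0.65 over the fits leaving out a library). Eno4 changed sign with library totals (-1.10) and limma on log2(TPM + 1) (-0.38) and log2(TPM + 0.1) (-1.37). TPM and library totals scale all genes down together, and the cause beyond that was not tested. The single-exon share difference of -0.136 points was 7.68 without Ldhc and -3.25 without Pdha2, ranged from -2.27 to 2 over the fits leaving out a library, and kept within 1 replicate SD (2.50 points) with TPM (-1.70), without Pgk2 (1.98) and without Ldhc and Pdha2 (1.81). With the replicate number as a block, 7 members were lower and 0 higher (11.5% of all genes lower), and no member's call changed. Deviations of same-numbered libraries correlated at 0.23 across genes, but the labels name no shared animal or day and there are only 2 pairs, so the numbers were not taken as pairing. Among all genes 1185 were lower and 1772 higher; DESeq2 gave 729 lower, library totals 5759 and 483, limma on log2(TPM + 1) 19 and 5 and on log2(TPM + 0.1) 6823 and 111, and the fit without LARP7 replicate 2 gave 197 and 660. Depth limits Aldoart1 most, with 15 counts in both LARP7 libraries together.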
